A study of Mus musculus with 12 samples.

Results

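The genes described here encode the urea cycle and the breakdown of amino acids in liver. They were taken by name from a pathway list of 38 genes, all 38 of which were found among the 46882 gene names of the count table. Liver RNA of A1cf -/- mice (KO, 6 libraries) was compared with that of wild-type mice (WT, 6 libraries). All animals were of the C57BL/6 strain, had an age of 6 to 8 weeks and carried no other allele or treatment in the labels. A1CF (APOBEC1 complementation factor) binds RNA in liver and gut and was found as the helper of the deaminase that edits Apob mRNA. The comparison asked which liver transcripts differ when A1cf is missing. Libraries are called by genotype and by the number in their title, as in KO 780.

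Amino acids that are not used for protein are broken down mainly in the liver. Transaminases and deaminating enzymes move their nitrogen to glutamate, aspartate and free ammonia, while the carbon skeletons go to glucose or to the citric acid cycle. The urea cycle then turns ammonia and the nitrogen of aspartate into urea. Cps1 and Otc act in mitochondria, and Ass1, Asl and Arg1 in the cytosol. Periportal hepatocytes, which meet blood from the gut first, hold most of this activity. Many of these genes are induced by glucagon and glucocorticoids in fasting and by protein in the diet.

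Counted fragments per library lay between 22129092 and 51082317 in KO and between 25898171 and 40597491 in WT. A1cf itself was at 8.20 to 12.6 CPM (counts scaled to library size by TMM) in KO and at 47.9 to 53.8 CPM in WT, without overlap (log2 fold change −2.26 ± 0.09 SE, edgeR adjusted p = 1.1e-08). Counts over the whole gene do not tell from which exons the remaining KO fragments came. The 8 hepatocyte markers summed to 82481 to 98976 CPM in KO and 86180 to 106154 CPM in WT. Of these 8, 0 passed the test and 2 had log2 fold changes above 0. Of the 11 Kupffer cell markers, 0 passed and all 11 had log2 fold changes above 0 (sum 138 to 491 CPM in KO and 134 to 222 CPM in WT). Stellate cell markers summed to 368 to 516 CPM in KO and 224 to 388 CPM in WT, all 11 had log2 fold changes above 0, and 2 of them, Pdgfrb and Lrat, rose. All 10 endothelial markers were above 0, and 1, Stab2, rose. With 1 library left out in turn, Pdgfrb passed in 9 of 12 comparisons, Lrat in 7 and Stab2 in 3. The part of these cells in the results below was not tested. Kidney markers stayed at or below 0.131 CPM in sum in KO and 0.0736 CPM in WT. The serum amyloid gene Saa1, a marker of the acute phase response, varied from 70.4 to 17489 CPM in KO and from 20.8 to 8337 CPM in WT, with the highest values in KO 602, WT 590 and WT 601.

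All 38 members were abundant enough to be tested, and 0 of 38 passed an adjusted p of 0.05 in edgeR's quasi-likelihood test, against 3.82% of all 13706 tested genes (1.72% higher and 2.09% lower in KO). At an unadjusted p under 0.05 there were 4 members (10.5%), against 21.2% of all tested genes. DESeq2 called 1 member, Bhmt, against 8.57% of all tested genes, and limma-voom called 0, against 4.18%. With the range of the library number as a covariate, described below, 2 members passed, Gpt2 and Bhmt, against 4.99% of all tested genes. In 0 members did the genotypes separate without overlap, against 3.3% of all tested genes. Log2 fold changes of KO over WT were above 0 in 17 members and below 0 in 21, with a median of −0.02, against 0.01 over all tested genes. The median size of the change was 0.10 on the log2 scale in the members and 0.16 in all tested genes, and 29 members lay within 0.2 of 0.

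The 95% interval of the fold change lay within 1.5-fold in either direction for 27 members and within 1 log2 unit for 36. The members varied more between libraries of one genotype than most genes did. Their within-genotype SD of log2 CPM had a median of 0.32, against 0.24 over all tested genes, and 25 of 38 were above that overall median.

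**Figure D1:**
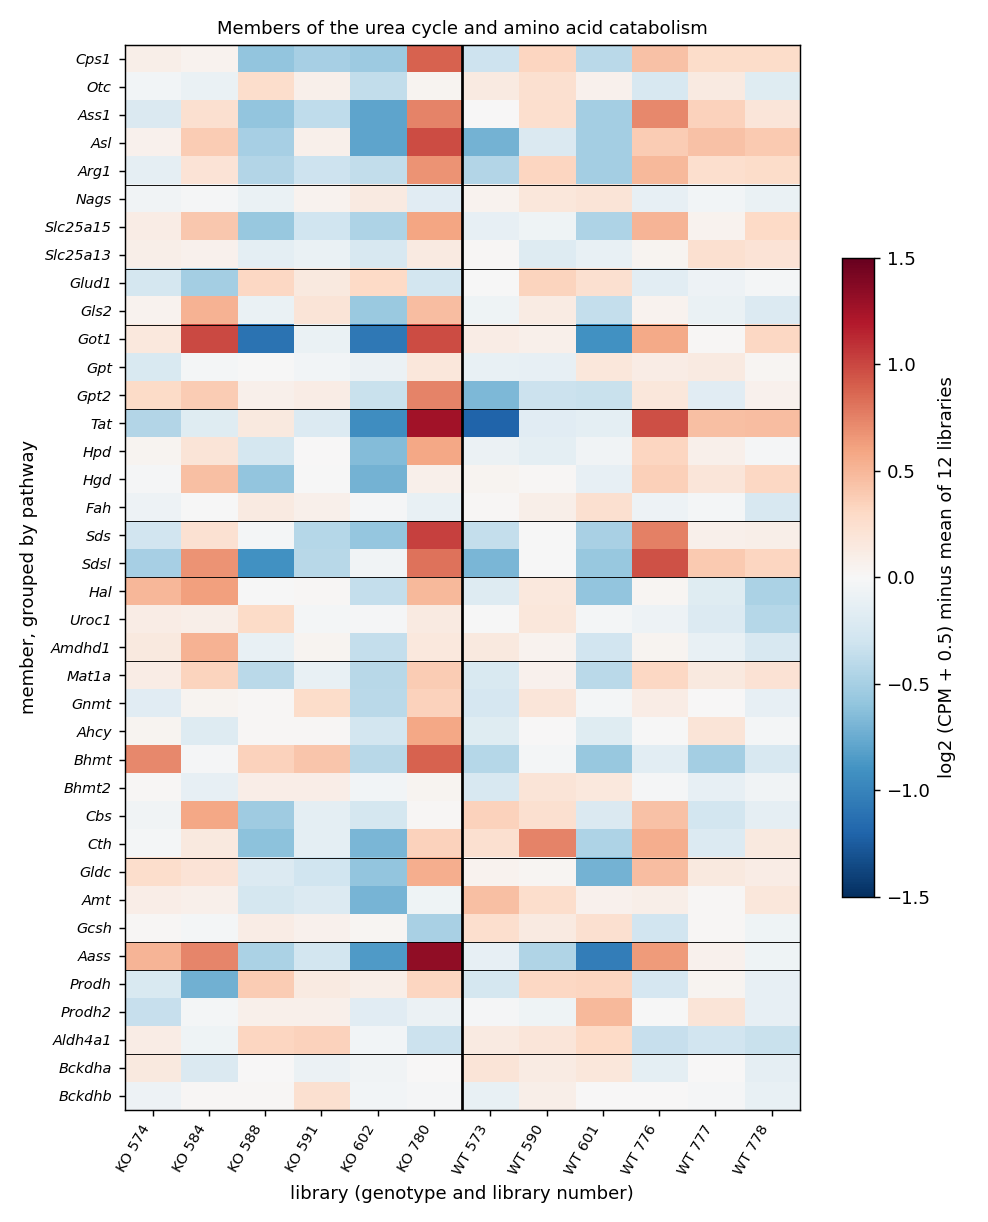
Level of each of the 38 members (rows, grouped by pathway) in each library (columns, KO left of WT) as log2 (CPM + 0.5) minus the mean of the 12 libraries. KO 780 is the reddest column, with 30 of 38 members above their own mean, and KO 602 the bluest, with 4 of 38.

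Taken as a share of all counts, the 38 members made up 2.79% to 6.35% in KO libraries (median 4.32%) and 3.09% to 5.03% in WT libraries (median 4.09%). The WT range lay wholly inside the KO range. KO 602 held the lowest share and KO 780 the highest. KO 602 also stood apart in the summed CPM of markers of other cells. Its 6 cholangiocyte markers summed to 515 CPM, against 28.5 to 60.4 CPM in the other KO libraries and 34.5 to 121 CPM in WT. Its 6 neutrophil and monocyte markers summed to 23.6 CPM, against 4.10 to 10.8 CPM in the other KO libraries and 2.82 to 7.58 CPM in WT. Of these lists 5 and 4 genes were abundant enough to be compared between genotypes, and 0 passed in edgeR. Over these genes the mean log2 deviation from the mean of the 12 libraries was 0.68 and 1.87 in KO 602. The next highest values were 0.42 (WT 573) and 0.79 (KO 591). The cholangiocyte sum was thus not raised evenly over its markers. The part of such cells in the low share was not tested. Divided by exonic length, the highest level was that of Mat1a, at 2706 CPM per kb in KO and 2738 CPM per kb in WT. Gnmt, Hpd and Arg1 came next in both genotypes in CPM per kb. Sdsl, Amt and Nags were lowest, at 17.2, 15.4 and 20.3 CPM per kb in KO and 18.5, 19.5 and 21.1 CPM per kb in WT. The SD of Sdsl, 8.46 CPM per kb in KO and 8.10 in WT, was larger than its distance from the other two, so the order of these 3 is not resolved.

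None of the 5 urea cycle enzymes passed the test. Their log2 fold changes ran from −0.28 to 0.12, with 1 above 0 and a median of −0.12. Cps1, carbamoyl phosphate synthetase, which brings ammonia into the cycle and is its rate-limiting enzyme, lies on chromosome 1 (67123026 to 67231259, plus strand, mm10). It had 2510, 3288 and 6985 CPM (lowest, median, highest) in KO and 2846, 4583 and 5132 CPM in WT. Only KO 780 lay above the WT libraries, and 3 KO libraries lay below all of them. The log2 fold change was −0.14 ± 0.25 (SE; edgeR adjusted p = 0.81).

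Otc, ornithine transcarbamylase, makes citrulline and is X-linked (10252305 to 10321024, plus strand). Its levels were 243, 314 and 376 CPM in KO and 267, 336 and 370 CPM in WT, a log2 fold change of −0.04 ± 0.11 (SE; edgeR adjusted p = 0.87). The genotypes overlapped over most of their range. Otc was the steadiest of the 5, with a within-genotype SD of 0.20 on the log2 scale, against 0.43 to 0.57 in the other enzymes. The 250 bases before its start are printed here as the counterpart of the more variable members below (RefSeq, GRCm38.p6, chrX:10252055-10252304, plus strand). None of the 6 motifs searched for was found in this window, and so no base is in capitals. Other members outside the urea cycle were steadier than Otc, and whether motifs go with spread was not tested.
Otc upstream: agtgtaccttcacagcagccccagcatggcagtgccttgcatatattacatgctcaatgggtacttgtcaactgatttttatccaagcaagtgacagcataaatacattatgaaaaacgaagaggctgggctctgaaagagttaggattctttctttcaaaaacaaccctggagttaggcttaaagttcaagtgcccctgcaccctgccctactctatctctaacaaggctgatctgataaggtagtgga

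Ass1, argininosuccinate synthase, which takes up aspartate (chromosome 2, 31470207 to 31520672, plus strand), had 1219, 1716 and 3535 CPM in KO and 1481, 2450 and 3469 CPM in WT. KO 780 was highest and KO 602 lowest of all 12 libraries. The log2 fold change was −0.28 ± 0.26 (SE; edgeR adjusted p = 0.57). Asl, argininosuccinate lyase, which releases arginine and fumarate (chromosome 5, 130011258 to 130029247, minus strand), had 721, 1306 and 2461 CPM in KO and 762, 1345 and 1688 CPM in WT (log2 0.12 ± 0.29 SE, edgeR adjusted p = 0.86). Arg1, arginase, which splits arginine into urea and ornithine (chromosome 10, 24915208 to 24927470, minus strand), had 1230, 1437 and 2658 CPM in KO and 1171, 2007 and 2337 CPM in WT (log2 −0.12 ± 0.22 SE, edgeR adjusted p = 0.81). In both genes KO 780 stood above all other libraries and the remaining KO libraries lay within or just below the WT range.

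**Figure D2:**
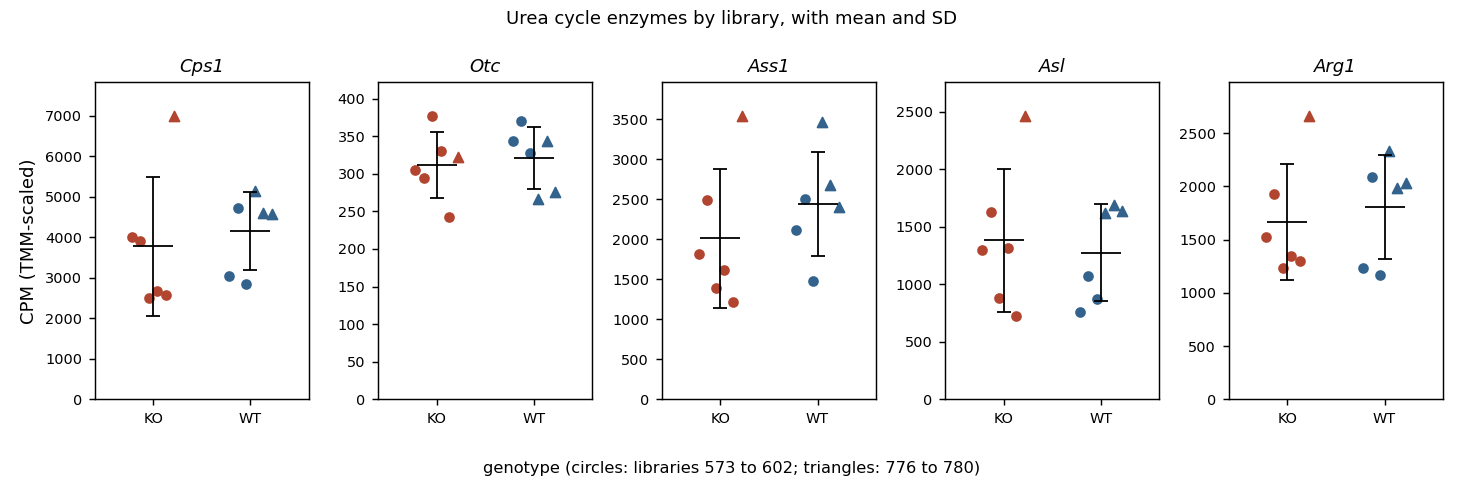
CPM of the 5 urea cycle enzymes in each library, KO left of WT, with mean and SD (n = 6 each). KO 780, the triangle among the KO points, is highest for Cps1 (6985 CPM), Ass1, Asl and Arg1 but not for Otc.

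The genes that serve the cycle also stayed close to WT. Nags makes N-acetylglutamate, the obligatory activator of Cps1, and averaged 57.7 ± 4.5 CPM in KO and 59.9 ± 5.9 CPM in WT (SD, n = 6 each). Slc25a15, the mitochondrial ornithine carrier, averaged 404 ± 135 CPM in KO and 415 ± 97 CPM in WT. Slc25a13, which exports aspartate from mitochondria in exchange for glutamate, averaged 307 ± 32 CPM in KO and 323 ± 38 CPM in WT. All 3 log2 fold changes lay between −0.07 and −0.04 and were within 1 SE of 0. Glud1, glutamate dehydrogenase, averaged 815 ± 191 CPM in KO and 861 ± 119 CPM in WT (log2 −0.08 ± 0.15 SE). Gls2, the liver glutaminase, had 255, 410 and 539 CPM in KO and 293, 355 and 409 CPM in WT. For Gls2, 3 KO libraries lay above the WT range and 1 lay below it (log2 0.22 ± 0.16 SE, edgeR adjusted p = 0.45).

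Over the 12 libraries, a group of members went up and down together from library to library. Relations of log2 CPM to Cps1 were computed for the other 37 members over the 12 libraries, with permutation p-values (100000 permutations, two-sided) adjusted over the 37. In 13 members both Pearson's r and Spearman's rho were positive and passed 0.05. No such relation was computed for genes outside the list. Whether 13 of 37 exceeds the share over all tested genes was therefore not tested. Arg1 was closest to Cps1 (r = 0.95, rho = 0.91, adjusted permutation p = 0.00037 and 0.0024), followed by Ass1 (r = 0.92, rho = 0.94). For Arg1, r was 0.96 among the 6 KO libraries and 0.999 among the 6 WT libraries. Over the 13 members, r was lowest for Hgd in KO (0.59) and for Hpd in WT (0.50). Relations within a genotype were not tested. Slc25a15, Mat1a, Sds, Gldc, Asl, Got1, Sdsl, Aass, Hpd, Cth and Hgd made up the rest, with r between 0.65 and 0.89. Without the libraries farthest from the Cps1 median, KO 780 and KO 588, r was 0.93 for Arg1, 0.89 for Ass1 and 0.59 to 0.86 for the others. Among the 8 libraries numbered 573 to 602, r was 0.88 for Arg1, 0.84 for Ass1 and Cth and 0.82 for Mat1a. It was smaller there for Asl (0.54, against 0.83 over all 12), Sds (0.57 against 0.84), Sdsl (0.52 against 0.79), Aass (0.55 against 0.77) and Hpd (0.49 against 0.77). The range 776 to 780 holds only 4 libraries, too few for a value. Permutations ran over all 12 libraries and not within number ranges, so a difference between the ranges enters these p-values. All points share libraries and scaling, so the members of such a group are not independent of each other.

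Otc did not follow Cps1, with r = −0.07 and rho = −0.13 (adjusted permutation p = 0.84 and 0.74). Fah, Glud1 and Nags had negative r of −0.63, −0.57 and −0.53, none of which passed. Aldh4a1, the last step of proline breakdown, was the only member with a negative relation that passed in both measures (r = −0.76, rho = −0.70, adjusted permutation p = 0.017 and 0.047). Among libraries 573 to 602 its r was −0.34. Gcsh, the lipoyl carrier protein of glycine cleavage, had r = −0.77 and rho = −0.59, of which only r passed (adjusted permutation p = 0.0080 and 0.098), and r was −0.23 among libraries 573 to 602. Tat and Ahcy had positive relations of which again only r passed (r = 0.72 and 0.70, adjusted permutation p = 0.018 and 0.017). Their rho was 0.61 and 0.42 (adjusted permutation p = 0.091 and 0.26). Among libraries 573 to 602 their r was 0.10 and 0.26. The relations of Aldh4a1 and Gcsh, and those of Asl, Sds, Sdsl, Aass, Hpd, Tat and Ahcy, were thus smaller within that range.

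**Figure D3:**
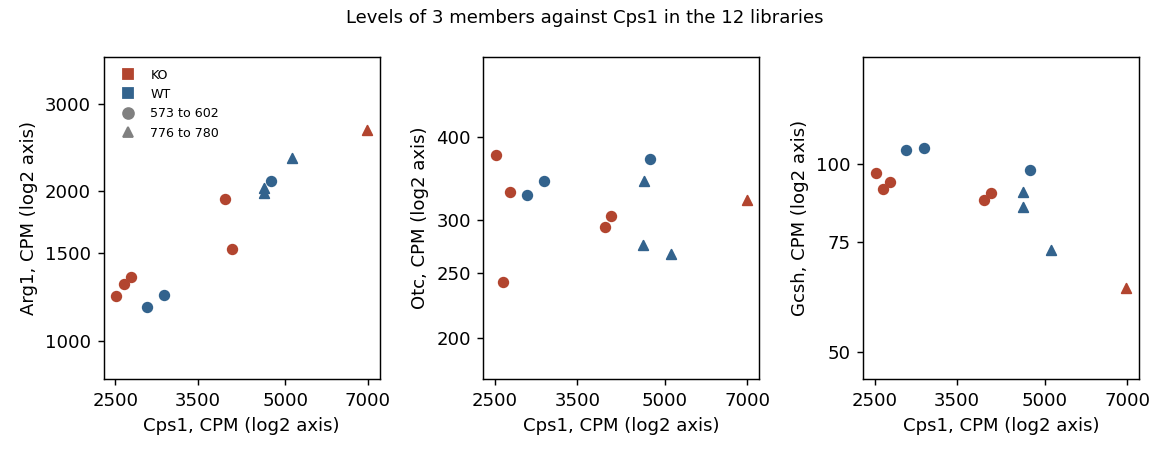
CPM of Arg1, Otc and Gcsh (y axes, log2 scale) against CPM of Cps1 (x axes, log2 scale) in the 12 libraries. Arg1 follows Cps1 in both genotypes (r = 0.95), Otc shows no slope (r = −0.07) and Gcsh slopes down (r = −0.77), with KO 780 farthest to the right.

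The widest spread within a genotype was seen in Got1, Tat, Aass and Sdsl, with SDs of 0.75, 0.75, 0.70 and 0.67 on the log2 scale. Tat, tyrosine aminotransferase, starts tyrosine breakdown and is a classic target of glucocorticoids (chromosome 8, 109990437 to 109999803, plus strand). It had 1195, 1988 and 5437 CPM in KO and 989, 2584 and 4463 CPM in WT (log2 −0.09 ± 0.39 SE, edgeR adjusted p = 0.92). KO 780 and WT 776 were the highest of their genotypes, and KO 602 and WT 573 the lowest. Got1, cytosolic aspartate aminotransferase (chromosome 19, 43499752 to 43524605, minus strand), had 188, 415 and 808 CPM in KO and 217, 433 and 602 CPM in WT (log2 0.12 ± 0.38 SE, edgeR adjusted p = 0.90). Aass, which opens lysine breakdown (chromosome 6, 23072173 to 23132986, minus strand), had 239, 483 and 1080 CPM in KO and 210, 405 and 670 CPM in WT (log2 0.43 ± 0.37 SE, edgeR adjusted p = 0.54). The WT values of Got1 and Aass lay wholly inside the KO span for Got1 and almost wholly for Aass. The steadiest members were Bckdhb, Nags, Gpt, Fah and Bhmt2, with SDs of 0.09 to 0.13.

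The 250 bases before the start of Tat, Got1 and Aass are shown because these members varied most among those with a RefSeq record (GRCm38.p6; chr8:109990186-109990435, plus strand; chr19:43524606-43524855, minus strand; chr6:23132987-23133236, minus strand). Capitals mark CCAAT on either strand (read as ATTGG on the other) in all 3. In Aass they also mark TGACG and a match to TTGCNNAA on the other strand, which reads TTGAGCAA here.
Tat upstream: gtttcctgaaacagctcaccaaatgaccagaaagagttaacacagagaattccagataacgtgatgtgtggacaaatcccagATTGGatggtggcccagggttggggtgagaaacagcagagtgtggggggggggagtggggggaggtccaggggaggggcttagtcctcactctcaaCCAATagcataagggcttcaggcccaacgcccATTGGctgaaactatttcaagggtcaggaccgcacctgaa
Got1 upstream: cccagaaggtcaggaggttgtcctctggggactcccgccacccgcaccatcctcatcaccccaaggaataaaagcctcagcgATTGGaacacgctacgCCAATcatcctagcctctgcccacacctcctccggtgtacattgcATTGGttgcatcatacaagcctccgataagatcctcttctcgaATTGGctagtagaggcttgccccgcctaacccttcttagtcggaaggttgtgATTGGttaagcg
Aass upstream: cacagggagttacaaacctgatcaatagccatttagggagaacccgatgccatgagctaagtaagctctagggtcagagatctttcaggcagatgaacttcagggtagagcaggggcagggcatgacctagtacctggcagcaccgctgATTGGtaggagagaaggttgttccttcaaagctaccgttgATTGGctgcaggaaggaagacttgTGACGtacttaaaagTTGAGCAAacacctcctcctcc

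Of the 38 members, 29 had a RefSeq promoter record. Each of 6 motifs was searched on both strands of the 250 bases before the start, and motifs may overlap. CCAAT was found in 58.62% of the 29 and in 34.46% of all 27025 promoters. GGGCGG was found in 51.72% and 32.94%, TATAAA in 6.897% and 12.97%, and TGACG in 6.897% and 17.86%. TTGCNNAA was found in 13.79% and 9.554%, and TGTTCT in 3.448% and 16.17%. These are matches of letters in a short window and say nothing about which factors bind there.

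Libraries differed by more than genotype. Those numbered 776 to 780 comprise KO 780 and 3 WT libraries, and those numbered 573 to 602 comprise 5 KO and 3 WT libraries, while the labels do not say what the numbers stand for. A coefficient for the range, fitted beside genotype and added after the data were seen, passed an adjusted p of 0.05 in 5 members (13.2%), against 4.36% of all tested genes. Asl, Tat and Sds were higher in the libraries 776 to 780, against 2.14% of all tested genes, and Gcsh and Aldh4a1 were lower. At an unadjusted p under 0.05 there were 19 members (50%), against 22.1% of all tested genes. The adjusted count depended on single libraries. Without KO 780, 0 members and 18 of all genes passed, and 11 members had an unadjusted p under 0.05. Without WT 776 only Asl and Tat passed. Without KO 584, 11 members passed, with Cps1, Ass1, Arg1, Slc25a15, Sdsl and Gpt2 added, and without WT 590, 7 passed. G6pc, a gluconeogenic gene induced in fasting and named after its values were seen, was at 484 CPM in KO 780 and at 653, 759 and 686 CPM in WT 776, WT 777 and WT 778. In libraries 573 to 602 G6pc lay between 68.6 and 221 CPM in KO and between 51.04 and 249.8 CPM in WT. Pck1, another gluconeogenic gene, did not separate the ranges. It was at 5935, 4818, 6129 and 5469 CPM in KO 780, WT 776, WT 777 and WT 778. In libraries 573 to 602 Pck1 reached 5407 CPM in KO and 5053 CPM in WT. Over 10 fasting and glucocorticoid genes the mean log2 deviation was 0.52 to 1.03 in libraries 776 to 780 and −0.67 to −0.01 in 573 to 602. Saa1 was 17489 CPM in KO 602, where the members were lowest, and 70.4 CPM in KO 780, where they were highest. It was 75.3, 83.8, 1840 and 3653 CPM in KO 574, KO 584, KO 591 and KO 588. Of 38 members, 21, 24, 19 and 16 lay above their own mean there. The WT libraries did not all follow the order of KO 602 and KO 780. WT 590 and WT 601, with 8337 and 6920 CPM of Saa1, had 26 and 13 of 38 members above their own mean. WT 573, WT 776, WT 777 and WT 778, with 20.98, 65.03, 20.85 and 21.0 CPM, had 15, 25, 24 and 17. What part fasting, the acute phase response or the number range has in the spread of the members was not tested.

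Among the members that process methionine and homocysteine, Bhmt stood out from the other 6. Bhmt, betaine-homocysteine methyltransferase, remakes methionine from homocysteine with betaine as the methyl donor (chromosome 13, 93616891 to 93637961, minus strand). It was at 7556, 4516, 5788, 6079, 3426 and 8434 CPM in KO 574, 584, 588, 591, 602 and 780, and at 3410.4, 4491, 3089, 4091, 3208 and 3871 CPM in WT 573, 590, 601, 776, 777 and 778. In 5 of 6 KO libraries Bhmt lay above the highest WT library, and KO 602 lay inside the WT range. The log2 fold change was 0.69 ± 0.20 (SE), the largest of the 38 in size, with an unadjusted p of 0.0036 and an adjusted p of 0.069 in edgeR, so it did not pass. Among libraries 573 to 602 the difference in mean log2 CPM was 0.55, and among 776 to 780, with 1 KO library, 1.19. Adjusted p-values of Bhmt ran from 0.0096 to 0.35 over the 20 alternatives. It passed in 3 of them, namely DESeq2 (0.0096), the number range as a covariate (0.043) and the comparison without KO 602 (0.024). The fold change of Bhmt stayed between 0.57 and 0.81 on the log2 scale throughout. In bulk RNA, more RNA per cell and more cells of a type cannot be told apart.

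Gm15622, a gene model on the opposite strand inside Bhmt (chromosome 13, 93625382 to 93628633, plus strand), rose in KO. It is no member and was named after its values were seen. Its levels were 2.66, 8.44 and 10.8 CPM in KO and 1.43, 2.24 and 3.04 CPM in WT, a log2 fold change of 1.77 ± 0.29 (SE; edgeR adjusted p = 0.0051). Only the lowest KO library lay inside the WT range. Of its 1464 exonic bases, 187 lie in exons and 1277 in introns of Bhmt. Counting used no strand, so reads of Gm15622 and of unspliced Bhmt RNA cannot be told apart.

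Bhmt2, which uses S-methylmethionine as its methyl donor, is the neighbour of Bhmt on the same strand, 17758 bases away. Its levels were 273, 305 and 321 CPM in KO and 252, 291 and 341 CPM in WT (log2 0.03 ± 0.09 SE, edgeR adjusted p = 0.91). All 6 KO values of Bhmt2 lay inside the WT range. Dmgdh, dimethylglycine dehydrogenase, oxidises the dimethylglycine that Bhmt forms, and its start faces that of Bhmt2 across 130 bases. It is no member and had 535, 782 and 1045 CPM in KO and 410, 490 and 634 CPM in WT (log2 0.61 ± 0.16 SE, edgeR adjusted p = 0.052). The fold changes of Bhmt2 and Dmgdh were not tested against each other. The interval between them is shown because both genes start at its edges (RefSeq, GRCm38.p6, chr13:93674303-93674432, minus strand, as read toward Bhmt2). Capitals mark its single GGGCGG.
Bhmt2 to Dmgdh interval: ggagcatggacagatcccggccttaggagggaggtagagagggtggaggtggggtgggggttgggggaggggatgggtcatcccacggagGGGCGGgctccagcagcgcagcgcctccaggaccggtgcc

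The other 5 methionine members had log2 fold changes between −0.34 and 0.09, and none passed. Mat1a, which makes S-adenosylmethionine in adult liver, averaged 8679 ± 2077 CPM in KO and 8782 ± 1600 CPM in WT (SD, n = 6 each). Gnmt, which uses up surplus S-adenosylmethionine, averaged 1740 ± 328 CPM in KO and 1681 ± 183 CPM in WT. Ahcy, which hydrolyses S-adenosylhomocysteine, averaged 1849 ± 422 CPM in KO and 1742 ± 170 CPM in WT. In the transsulfuration branch, Cbs averaged 438 ± 122 CPM in KO and 476 ± 102 CPM in WT. Cth, the second enzyme of that branch, had 282, 429 and 577 CPM in KO and 328, 519 and 765 CPM in WT. For Cth, 2 KO libraries lay below the WT range and the others within it (log2 −0.34 ± 0.22 SE, edgeR adjusted p = 0.40).

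**Figure D4:**
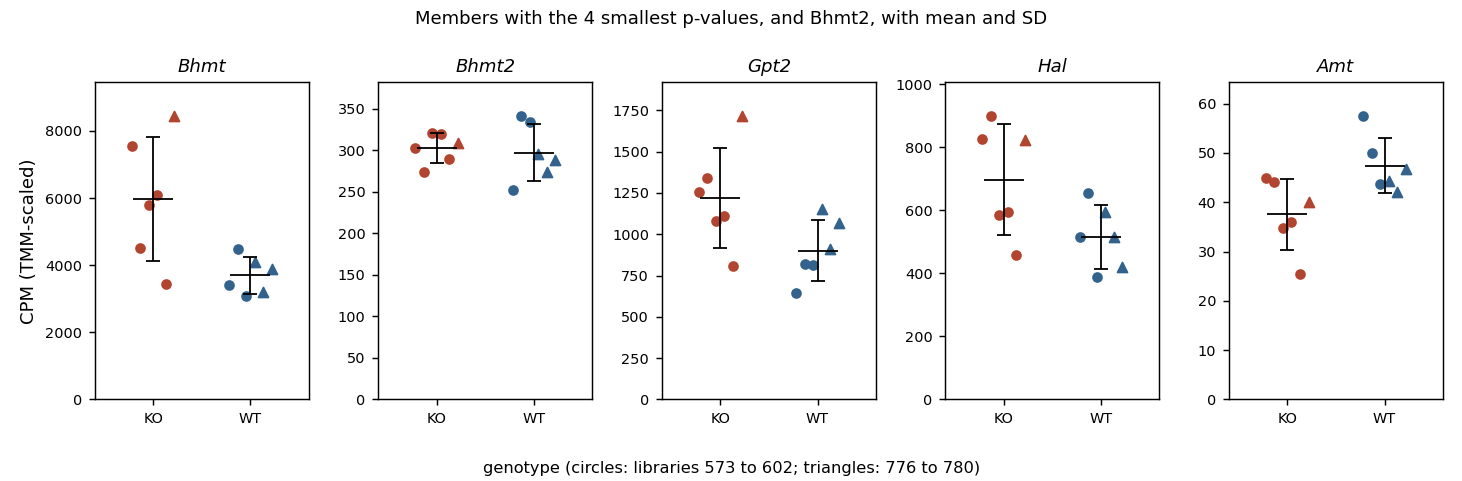
CPM of the 4 members with the smallest p (Bhmt, Gpt2, Hal, Amt) and of Bhmt2 in each library, KO left of WT, with mean and SD (n = 6 each). The genotypes overlap in every panel, by 1 KO library for Bhmt (3426 CPM), and the Bhmt2 values of KO lie inside those of WT.

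Neither of the alanine transaminases passed the test. Gpt2, the mitochondrial form (chromosome 8, 85492576 to 85527560, plus strand), had 811, 1183 and 1713 CPM in KO and 642, 863 and 1151 CPM in WT. For Gpt2, 3 KO libraries lay above the WT range, and KO 602 was lowest of the KO libraries. The log2 fold change was 0.44 ± 0.18 (SE; edgeR adjusted p = 0.18), and it passed only with the number range as a covariate (adjusted p = 0.023, range over all alternatives 0.023 to 0.30). Gpt, the cytosolic form, had 315, 358 and 414 CPM in KO and 339, 386 and 415 CPM in WT (log2 −0.07 ± 0.09 SE, edgeR adjusted p = 0.68). Apart from the lowest KO library, all Gpt values of KO lay inside the WT range. Their ratio is given with the other pairs below.

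The 3 members of histidine breakdown all had log2 fold changes above 0, with a median of 0.18, and none passed. Hal, histidine ammonia-lyase, releases ammonia from histidine (chromosome 10, 93488768 to 93519304, plus strand). It had 458, 709 and 898 CPM in KO and 388, 515 and 654 CPM in WT. In 3 KO libraries Hal lay above the WT range and in the others within it (log2 0.44 ± 0.18 SE, edgeR adjusted p = 0.18). Uroc1, urocanate hydratase, the next step, had 436, 478 and 545 CPM in KO and 331, 430 and 501 CPM in WT. All 6 KO libraries were above the WT median of Uroc1, and 1 was above the WT range (log2 0.18 ± 0.10 SE, edgeR adjusted p = 0.33). Amdhd1, which follows Uroc1, averaged 249 ± 52 CPM in KO and 225 ± 27 CPM in WT. Hal and Amdhd1 end 4033 bases apart on opposite strands.

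The 3 proteins of the glycine cleavage system all had log2 fold changes below 0, with a median of −0.09, and none passed. Amt, the aminomethyltransferase of the complex (chromosome 9, 108296853 to 108302302, plus strand), had 25.5, 38.1 and 44.8 CPM in KO and 42.2, 45.5 and 57.4 CPM in WT. In 4 KO libraries Amt lay below the WT range, and the other two were within it (log2 −0.34 ± 0.12 SE, edgeR adjusted p = 0.14). Its adjusted p lay between 0.092 and 0.30 over the 20 alternatives. Gldc, the glycine decarboxylase, averaged 125 ± 36 CPM in KO and 127 ± 30 CPM in WT (SD, n = 6 each). Gldc lies 1.69 Mb from A1cf on chromosome 19, and its log2 fold change was −0.02 ± 0.21 (SE). Gcsh averaged 86.9 ± 11.99 CPM in KO and 92.8 ± 12.7 CPM in WT.

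Of the tyrosine members after Tat, none passed the test. Hpd, the dioxygenase that forms homogentisate, averaged 2876 ± 811 CPM in KO and 2855 ± 346 CPM in WT. Hgd, which opens the homogentisate ring, averaged 779 ± 228 CPM in KO and 907 ± 116 CPM in WT. Fah, fumarylacetoacetase, the last step, averaged 669 ± 44 CPM in KO and 670.1 ± 75 CPM in WT. Their edgeR adjusted p-values were 0.98, 0.51 and 0.99.

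Sds, serine dehydratase, turns serine into pyruvate and had 167, 223 and 508 CPM in KO and 177, 255 and 419 CPM in WT (log2 0.03 ± 0.28 SE). Sdsl, its homologue, 3715 bases away on the opposite strand, had 12.8, 20.8 and 43.5 CPM in KO and 15.01, 27.5 and 47.9 CPM in WT (log2 −0.11 ± 0.36 SE). Both were highest in KO 780 among the KO libraries and in WT 776 among the WT libraries. Prodh, proline dehydrogenase, had 125, 224 and 269 CPM in KO and 172, 201 and 258 CPM in WT. Prodh2, which acts on hydroxyproline, had 166, 203 and 224 CPM in KO and 194, 210.2 and 297 CPM in WT (log2 −0.17 ± 0.11 SE, edgeR adjusted p = 0.42). Of the Prodh2 values of KO, 2 lay below the WT range. Aldh4a1 averaged 266 ± 46 CPM in KO and 246 ± 50 CPM in WT.

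The E1 subunits of the branched-chain ketoacid dehydrogenase were at nearly the same level in both genotypes. Bckdha had 52.9, 60.5 and 68.3 CPM in KO and 55.7, 64.6 and 70.5 CPM in WT. Bckdhb had 87.5, 92.8 and 109 CPM in KO and 85.8, 92.1 and 98.2 CPM in WT. Its log2 fold change of 0.05 ± 0.07 (SE) had the narrowest error of the 38.

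**Figure D5:**
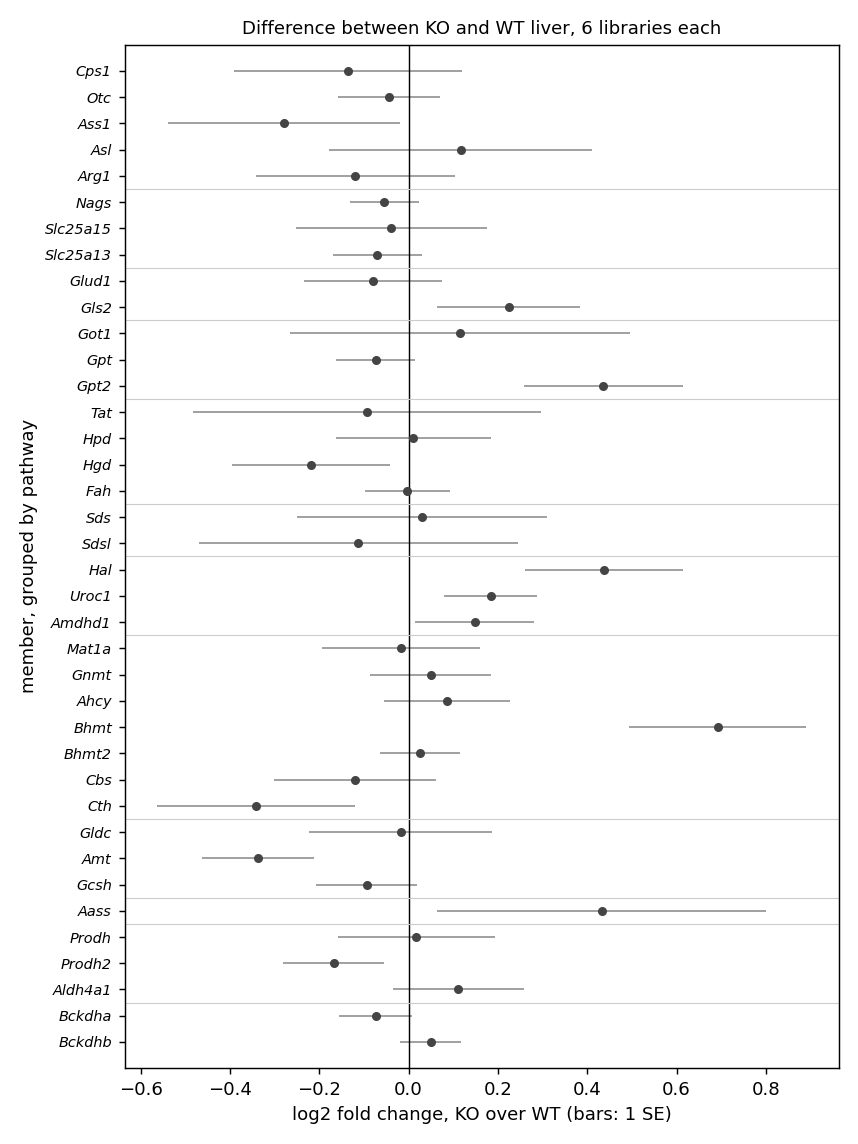
Log2 fold change of KO over WT for each of the 38 members, grouped by pathway, with bars of 1 SE. Most points lie near 0, Bhmt is farthest out at 0.69, and Tat, Got1 and Aass have the widest bars.

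Ratios within a library do not depend on how libraries are scaled, and 5 pairs of related members were compared in this way. The log2 ratio of Bhmt to Bhmt2 averaged 4.24 ± 0.44 in KO and 3.63 ± 0.22 in WT (SD, n = 6 each), a difference of 0.61 (two-sided exact permutation p = 0.011, adjusted over the 5 pairs 0.038). The log2 ratio of Gpt to Gpt2 averaged −1.73 ± 0.31 in KO and −1.23 ± 0.26 in WT, a difference of −0.50 (exact permutation p = 0.015, adjusted 0.038). In both pairs the genotypes overlapped. Both kept an adjusted p under 0.05 when KO 602, WT 776 or WT 778 was left out, and neither did when any other library was, with differences of 0.50 to 0.75 and −0.60 to −0.43. Within libraries 573 to 602 the differences were 0.57 and −0.61 (adjusted exact permutation p = 0.27 for each), where 5 against 3 libraries cannot give an unadjusted p under 0.036. The pairs were chosen with earlier results of these libraries known. For Sds to Sdsl, Prodh to Prodh2 and Bckdha to Bckdhb the differences were 0.11, 0.15 and −0.12 (adjusted exact permutation p = 0.65, 0.55 and 0.48).

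Other genes of amino acid metabolism were counted in lists by pathway. None of the 17 further branched-chain genes tested passed, and neither did any of 14 glycine and serine, 16 sulfur, 8 lysine and proline or 14 transporter genes. Among the 11 further aromatic genes 1 fell, Pcbd1, which recycles the tetrahydrobiopterin cofactor of phenylalanine hydroxylase. It had 109, 136 and 149 CPM in KO and 170.5, 194 and 217 CPM in WT, without overlap (log2 −0.56 ± 0.09 SE, edgeR adjusted p = 0.0049). Among 9 glutamine and asparagine genes 1 fell, Asns, asparagine synthetase. It had 0.212, 0.274 and 1.41 CPM in KO and 2.02, 6.998 and 18.9 CPM in WT, without overlap (log2 −4.03 ± 0.67 SE, edgeR adjusted p = 0.0080). Among 14 regulators 1 fell, Sirt5, a mitochondrial deacylase that acts on Cps1. Sirt5 had 7.88, 8.95 and 10.8 CPM in KO and 11.1, 13.1 and 14.4 CPM in WT, without overlap (log2 −0.47 ± 0.10 SE, edgeR adjusted p = 0.018).

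None of 10 fasting and glucocorticoid genes and none of 14 acute phase genes passed, and 13 of the 14 acute phase genes had log2 fold changes above 0. Lbp, with the smallest p of the 14, was below 0 (log2 −0.30 ± 0.10 SE, edgeR adjusted p = 0.12). The acute phase genes had mean log2 deviations of 3.37 in KO 602, 2.43 in WT 590 and 1.95 in WT 601. In the other libraries these were −1.33 to 1.34 in KO and −1.76 to −1.08 in WT. Of 9 further periportal genes 1 fell, Cdh1, E-cadherin (log2 −0.76 ± 0.19 SE, edgeR adjusted p = 0.040), which passed in 2 of the 12 comparisons that left out a library. Of 15 pericentral genes 0 passed. Log2 fold changes were above 0 in 4 of the 9 periportal and 5 of the 15 pericentral genes. The periportal genes summed to 63914 to 85284 CPM in KO and 70395 to 89165 CPM in WT, and the pericentral genes to 9605 to 16769 CPM in KO and 11848 to 16691 CPM in WT.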

How the data were processed

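Liver RNA was extracted with a miRNeasy kit and made into libraries with a TruSeq kit, per the labels' protocols. Per the file headers, the authors ran featureCounts 1.5.0-p2 over GENCODE M8 exons with no strand option, and the deposited values are unnormalized counts of fragments. STAR, DESeq2 and mm10 appear in the submitters' processing notes. The deposited table also gives an exonic length per gene (another value, used for CPM per kb), and gene positions on mm10. Depths were 22129092 to 51082317 counts.

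The 38 members, the pathway and marker lists and the 5 pairs were chosen with earlier results of these data known. Counts were analysed with R 4.3.3, edgeR 4.0.16 (filterByExpr, minimum count 10; TMM; robust quasi-likelihood test), limma 3.58.1 and DESeq2 1.42.0. Benjamini-Hochberg adjustment ran over 13706 genes, with a threshold of 0.05. A gene rose or fell only past it. A standard error is the size of the log2 fold change divided by the square root of F. Intervals are 1.96 SE to either side, which is narrower than a 95% interval of the quasi-likelihood test. Log2 CPM had a prior count of 2, and pair ratios a pseudocount of 0.5 CPM. Permutation tests were run over libraries with scipy 1.17.1. Of 200 planted changes in simulated data on 13706 genes for KO against WT, 52% were recovered at 1.5-fold, 78% at 2-fold, 92% at 4-fold and 98% at 8-fold, and 4.76% of calls were false. The changed genes were drawn at random from all tested genes. The members varied more than most genes, and recovery was not measured for them.

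Values are given for the urea cycle enzymes, the 8 members with the smallest p, the 4 with the largest spread within a genotype and the 5 pairs, as lowest, median and highest library, and as mean ± SD otherwise. From each other pathway list up to 3 genes past the threshold, or else at most 1, were named. Alternatives were scaling by RLE or by library totals, testing every gene with a count or only those averaging at least 1 CPM, limma-voom, DESeq2, the range of the library number as a covariate, only libraries 573 to 602, each library left out in turn and a pseudocount of 5 CPM. The series describes the 6 libraries of a genotype as biological replicates.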

Additional observations from a re-analysis of the deposited data

Results flagged for a closer look

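In 5 of 76 sets of 6 libraries, 1 library lay apart from the others by Dixon's criterion, where chance gives about 1 set in 20. The criterion was applied on the log2 scale, and the levels are given here in CPM. Got1 was at 217 CPM in WT 601, against 412 to 602 CPM in the other WT libraries, and Gldc at 74.3 CPM in WT 601, against 124 to 169 CPM. Ahcy was at 2655 CPM in KO 780, against 1467 to 1826 CPM in the other KO libraries. Gcsh was at 63.2 CPM in KO 780, against 87.5 to 96.5 CPM. Bckdhb was at 109 CPM in KO 591, against 87.5 to 94.0 CPM.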

How the results depend on the processing

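No paired analysis was possible because the genotypes share no library number. DESeq2 called 1175 of all genes and 1 member (Bhmt), libraries 573 to 602 alone gave 57 genes and 0 members, and the number range as a covariate gave 2 members (Gpt2 and Bhmt). Leaving out 1 library gave 266 to 638 genes and 0 or 1 member, and a median member log2 fold change of −0.09 to 0.05. With library totals only, 65.7% of called genes were higher in KO, against 45.1% with TMM. Within libraries 573 to 602 the differences in log2 ratio were 0.57 for Bhmt to Bhmt2 and −0.61 for Gpt to Gpt2, neither past the threshold. With 1 library left out they were 0.50 to 0.75 and −0.60 to −0.43, while the other pairs gave −0.05 to 0.23 (Sds to Sdsl), 0.09 to 0.31 (Prodh to Prodh2) and −0.17 to −0.06 (Bckdha to Bckdhb). The causes were not tested. Of 760 member values under 20 alternatives, 741 kept their direction and side of the threshold or moved by less than their error, 15 moved further and 4 passed the threshold. Signs changed in 80 of them, all without a call, in 20 members, and 36 members passed in none. Of the members, 7 overlap another gene of at least 1 CPM, so unstranded reads there are uncertain.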
